A study of Mus musculus with 13 samples.

Results

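The regions described here were the RNA polymerase II (PolII) peaks of Hepa 1-6 hepatoma cells depleted of KAP1 (Kap1 knockdown, KD) that lay outside every mapped region used to sort them. A Kap1 KD PolII peak was a member when it shared no base with a control PolII peak, a KAP1 peak, an H3K9me3 region or an H3K27ac region. There were 3159 members, which made up 24.6% of the 12862 Kap1 KD PolII peaks, among 231368 regions in all 8 lists. The members were selected on these lists, so the absence of control PolII, KAP1, H3K9me3 and H3K27ac at them is a description and not a result. Of the Kap1 KD PolII peaks, 66.7% overlapped no control PolII peak, and 36.8% of those 8573 peaks were members.

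Hepa 1-6 is a murine hepatoma line. PolII was precipitated with the antibody CTD4H8 from cells that received an shRNA targeting KAP1 (Kap1 KD) and from cells given a control shRNA plasmid per the labels, while the methods name an empty vector. Both were fixed 5 days after transduction and, per the methods, had been selected with puromycin. KAP1, H3K9me3, H3K27ac and H3K4me1 were profiled in cells under standard culture without any hairpin, so the marks given below are those of unperturbed cells and not of Kap1 KD cells, and no KAP1 profile of Kap1 KD cells was among the lists. Each antibody and condition had 1 library, so no value has a replicate error and no test between conditions was possible. No depth can be read from the lists, and a larger Kap1 KD list cannot be told apart from a deeper or better enriched library. Of the 13 hepatocyte and hepatoma markers, 7 (among them Alb, Afp and Hnf4a) had H3K27ac within 250 bp of the gene start. The same was true of 0 of the 4 endothelial markers, 0 of the 3 macrophage markers matched, 1 of the 4 cholangiocyte markers and 2 of the 4 fibroblast markers. Control PolII lay at the gene start of 1 of the 13 hepatocyte and hepatoma markers (Foxa2), and at that of 1 marker each of the fibroblast, macrophage and cholangiocyte lists, and Alb, Afp and Hnf4a had no PolII peak there in either condition.

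PolII starts at promoters, often pauses shortly downstream, and then crosses the gene body. Past the poly(A) signal the transcript is cleaved while the polymerase continues, slows and is released downstream of the annotated 3′ end, so PolII accumulates in that window on many active genes. PolII also occupies enhancers, which carry H3K4me1 and, when active, H3K27ac. KAP1 (Trim28) is a corepressor that zinc finger proteins bring to DNA, where it promotes H3K9me3. The CTD4H8 antibody recognises the repeated C-terminal tail of the largest PolII subunit, and a peak does not show whether RNA was made there.

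The sequences at the centre of 6 of the strongest members are shown because the strongest peaks in intergenic sequence, gene bodies and gene ends are described by name further on. They are extremes of score and not typical members. Each run covers 300 bases of the mm9 assembly (NCBIM37), read 5′ to 3′ on the + strand, with capitals marking a match to any of the 7 motifs that are spelled out further on. Windows that touched an annotated UTR were left out.
Intergenic, downstream of Asap1, chr15:63914571-63914870, + strand: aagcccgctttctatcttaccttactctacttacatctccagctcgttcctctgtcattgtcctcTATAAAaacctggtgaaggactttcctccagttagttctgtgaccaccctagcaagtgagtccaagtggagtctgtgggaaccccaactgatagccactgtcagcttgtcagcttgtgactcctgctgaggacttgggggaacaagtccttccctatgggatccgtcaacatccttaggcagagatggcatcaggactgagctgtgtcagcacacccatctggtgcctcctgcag
Intergenic, upstream of H2-DMa, chr17:34265942-34266241, + strand: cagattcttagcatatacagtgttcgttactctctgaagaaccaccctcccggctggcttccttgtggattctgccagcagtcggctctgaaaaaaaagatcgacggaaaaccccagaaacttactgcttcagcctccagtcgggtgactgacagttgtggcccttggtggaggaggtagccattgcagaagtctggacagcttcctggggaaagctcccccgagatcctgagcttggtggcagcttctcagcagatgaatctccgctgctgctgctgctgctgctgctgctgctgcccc
Intergenic, downstream of Hormad2, chr11:4230831-4231130, + strand: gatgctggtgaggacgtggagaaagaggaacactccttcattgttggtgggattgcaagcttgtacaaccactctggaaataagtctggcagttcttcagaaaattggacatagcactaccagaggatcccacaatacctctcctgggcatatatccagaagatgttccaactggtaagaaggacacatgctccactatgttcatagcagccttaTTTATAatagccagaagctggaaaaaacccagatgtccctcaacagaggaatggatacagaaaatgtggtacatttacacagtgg
Gene body, Mll2, chr15:98675807-98676106, + strand: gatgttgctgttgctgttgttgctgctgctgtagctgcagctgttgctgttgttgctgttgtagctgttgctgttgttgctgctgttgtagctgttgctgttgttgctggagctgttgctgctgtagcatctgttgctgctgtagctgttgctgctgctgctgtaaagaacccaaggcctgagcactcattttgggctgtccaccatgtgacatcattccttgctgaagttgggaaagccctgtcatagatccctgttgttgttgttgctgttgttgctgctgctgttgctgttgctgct
Gene body, Zfp622, chr15:25925824-25926123, + strand: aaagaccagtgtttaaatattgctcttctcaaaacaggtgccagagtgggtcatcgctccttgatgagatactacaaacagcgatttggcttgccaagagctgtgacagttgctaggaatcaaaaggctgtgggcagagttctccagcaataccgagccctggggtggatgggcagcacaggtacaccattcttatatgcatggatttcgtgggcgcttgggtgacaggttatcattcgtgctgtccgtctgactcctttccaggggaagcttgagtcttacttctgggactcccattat
Gene end, Eif3b, chr5:140922274-140922573, + strand: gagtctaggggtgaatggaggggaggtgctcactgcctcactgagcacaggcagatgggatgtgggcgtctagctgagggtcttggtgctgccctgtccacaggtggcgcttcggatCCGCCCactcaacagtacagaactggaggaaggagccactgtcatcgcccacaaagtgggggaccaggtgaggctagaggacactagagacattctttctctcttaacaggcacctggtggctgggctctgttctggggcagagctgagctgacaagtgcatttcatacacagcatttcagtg
The 3 intergenic windows were 51.3%, 55.3% and 44.3% G+C. The Mll2 window held no CG dinucleotide and was made largely of repeated gct and gtt triplets, in an exon of the gene. The 6 windows held 3 motif matches. These were TATAAA downstream of Asap1, the same letters on the opposite strand downstream of Hormad2, and GGGCGG on the opposite strand in the Eif3b window.

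Members were shorter and of lower score than the Kap1 KD PolII peaks as a whole. Each PolII peak carries a whole-number score whose meaning was not stated. For the members it had a median of 34 (range 12 to 531), against 48 for all Kap1 KD PolII peaks and 95 for the 4289 that overlapped a control peak. Their median width was 566 bp (range 20 to 12070 bp), against 799 bp for all and 1445 bp for the shared peaks, and they covered 2.68 Mb in sum. Kap1-KD-only peaks with H3K27ac and no KAP1 (2321 peaks) had a median score of 46 and a median width of 763 bp, and those in H3K9me3 were below the members, at 27 and 374 bp. Members made up 38.98% of the lowest quintile of the Kap1 KD scores, 34.5%, 23.3% and 17.7% of the quintiles above it and 8.36% of the highest. All Kap1-KD-only peaks fell from 93.8% to 23.0% over the same quintiles, and of the Kap1-KD-only peaks members were 41.5% in the lowest, between 31.3% and 39.8% in those above it and 36.3% in the highest. Score and width rise together in this list, so a trend with score is also a trend with width.

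The rule turned on a single shared base. The 3 members closest to a disqualifying region lay 1 bp from it and had scores of 25, 27 and 18, and the 3 excluded peaks with the least overlap shared 1 bp and had scores of 27, 25 and 31. Within 100 bp of a disqualifying region there were 202 members (median score 31). Excluded peaks that shared at most 100 bp with any such region numbered 653 (median score 20). A peak no wider than 100 bp counts here even when it lies wholly inside a region. Kap1-KD-only peaks in H3K9me3 were as narrow as 32 bp, so these medians are not of like peaks on each side of the limit. Far from the limit, 1216 members (38.5%) lay over 5 kb from every control PolII, KAP1, H3K9me3 and H3K27ac region. The median distance from a member to the nearest control PolII peak was 34.0 kb. Control PolII peaks are numbered in genome order and 2290 numbers (31.3%) are missing from the list. Of the members, 784 (24.8%) lay where at least 1 control number was missing and 2375 (75.2%) lay between consecutive control numbers.

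By the position of the peak centre, gene bodies held the most members under the rule as given. When a list had to cover at least 50% of a peak to exclude it, gene starts held more (34.5% against 29.6%), and without chromosome 15 both were close (29.0% and 30.6%). A gene body was taken as a protein-coding gene outside its start and end windows, and it held 1113 members (35.2%, 95% Wilson interval 33.6 to 36.9%). A gene start, within 1 kb of the TSS of any protein-coding transcript, held 773 (24.5%, 23.0 to 25.999%). A gene end, from 1 kb before to 5 kb after the annotated 3′ end, held 633 (20.04%, 18.7 to 21.5%). Sequence outside every annotated gene and these windows, called intergenic, held 581 (18.4%, 17.1 to 19.8%), and the other 59 (1.87%) lay in noncoding genes or pseudogenes. All intervals cover counting error over peaks only, since peaks are not replicate samples. The same windows take up 35.0%, 3.10%, 4.32% and 55.3% of the assembled genome, in the order given. The gene body share of the members was thus close to that of the genome. All Kap1 KD PolII peaks had 23.4% in gene bodies and 23.7% in intergenic sequence.

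**Figure D1:**
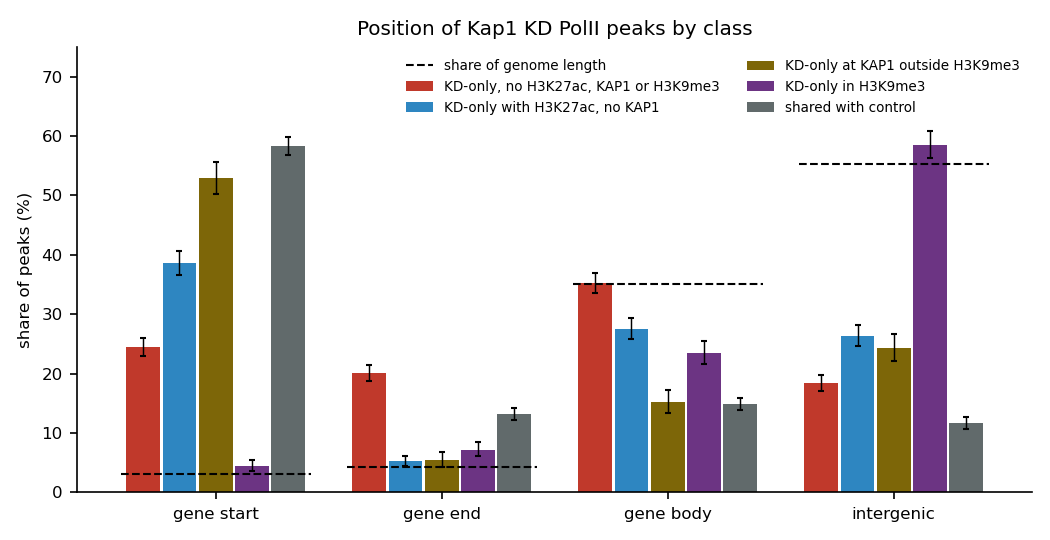
Share of Kap1 KD PolII peaks (%) whose centre lay at gene starts, gene ends, gene bodies or intergenic sequence, for the members (red) and 4 other classes of the same list. Bars are shares, error bars 95% Wilson intervals over peaks, and dashed lines the share of the genome length. The members have the tallest gene end bar (20.04%) and a gene start bar of 24.5%, and away from gene starts the shared peaks have the larger gene end share in all (31.7% against 26.5%) and the members the larger one within each score quintile. The shared peaks were not filtered on H3K27ac, KAP1 or H3K9me3.

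As a share of all peaks of a class, the members had more at gene ends than each other class, and with gene starts left out the shared peaks had more in all, though not within a score quintile. All Kap1 KD PolII peaks had 11.8% at gene ends (11.3 to 12.4%) and the shared peaks 13.2% (12.2 to 14.2%). The Kap1-KD-only peaks with H3K27ac had 5.21% (4.38 to 6.19%), those at KAP1 5.44% and those in H3K9me3 7.19%. Gene starts held 24.5% of the members, below the 38.6% of all Kap1 KD PolII peaks and the 58.3% of the shared peaks and above the 4.45% of the Kap1-KD-only peaks in H3K9me3. Since H3K27ac and KAP1 regions sit at many promoters, leaving out peaks that touch them also removes gene starts. Among peaks away from gene starts, gene ends held 633 of 2386 members (26.5%, 24.8 to 28.3%) and 566 of 1787 shared peaks (31.7%, 29.6 to 33.9%). Of these 1787 shared peaks 1072 were in the highest score quintile, against 200 of the 2386 members, and within each of the 5 quintiles the share of the members was the larger. The same share was 19.2% of all Kap1 KD PolII peaks, 8.49% of those with H3K27ac, 11.6% of those at KAP1 and 7.53% of those in H3K9me3. Within each score quintile the Kap1-KD-only peaks with H3K27ac, at KAP1 and in H3K9me3 were below the shared peaks. The shared peaks were not filtered on H3K27ac, KAP1 or H3K9me3 as the members were, so the members and the shared peaks are not like classes. Exons of the gene body held 129 members and introns 984, so exonic centres were 4.08% of the members against 2.19% of all Kap1 KD PolII peaks and 1.57% of the genome.

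Within the gene end window, members were densest shortly past the annotated 3′ end. Of the 633, the centre of 531 (83.9%) was beyond the 3′ end, close to the 83.3% of the window length that lies there. The median offset over all 633 was 1242 bp past the end (quartiles 408 and 2501 bp), and 364 (57.5%) lay outside every annotated gene. Around the 3′ ends of protein-coding genes of at least 5 kb, the density of members was 12.7 times an even spread over the genome in the bin from 1000 to 1500 bp past the end, where 130 members fell. It was 5.10 times in the last 500 bp of the gene and 2.25 times in the bin from 9500 to 10000 bp past it. The shared peaks reached 9.10 times and the peaks with H3K27ac 2.93 times in the bin where the members were densest. These densities count every peak of a class, those at gene starts included. Along the gene itself, divided into 20 equal bins, the density of members went from 0.95 times in the bin after the 5′ bin to 2.48 times in the 3′ bin. In the kilobase upstream of the gene start it was 8.72 times, against 26.6 for the shared peaks.

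**Figure D2:**
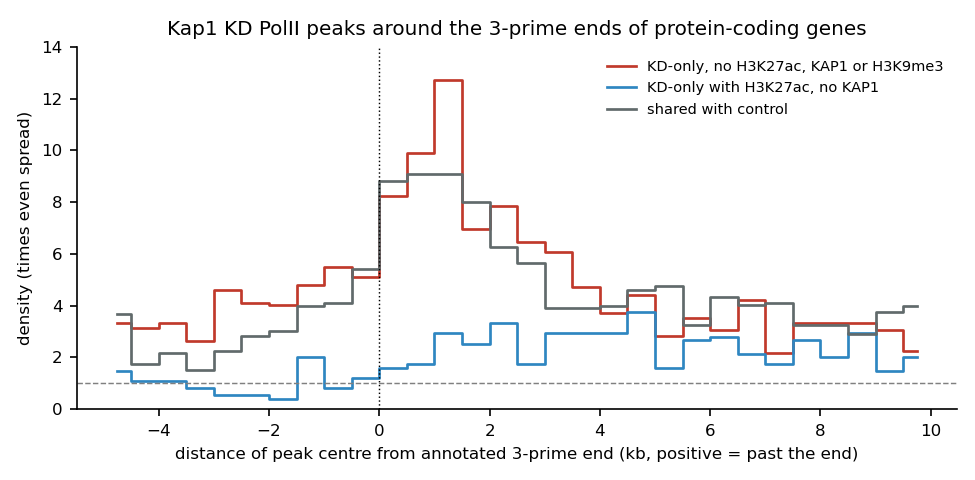
Density of Kap1 KD PolII peak centres around the annotated 3′ ends of protein-coding genes of at least 5 kb, in bins of 500 bp, as a multiple of an even spread of the same peaks over the genome (dashed line at 1). The members (red) reach 12.7 in the bin from 1000 to 1500 bp past the end, the shared peaks (grey) 9.10 there and the peaks with H3K27ac (blue) 2.93.

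The gene end share also differed with the peak score. Among members it was 12.7% in the lowest score quintile, then 14.8%, 22.2% and 32.8%, and 43.3% in the highest quintile, which held 215 members. Without chromosome 15 the highest quintile held 141 members and 53.9% of them lay at gene ends. The shared peaks had 8.18% in the lowest quintile and 21.2% in the highest, and the peaks with H3K27ac 3.40% and 11.8%. Of the 60 Kap1-KD-only peaks in H3K9me3 in the highest quintile, 31.7% lay at gene ends (21.3 to 44.2%), an interval that overlapped that of the members there (36.8 to 49.9%). With gene starts left out, 16.02% of the members and 12.4% of the shared peaks were at gene ends in the lowest quintile, then 22.3% and 18.4%, 31.4% and 18.04%, 39.1% and 25.8%, and 46.5% and 39.2% in the highest. The intervals did not overlap in the middle quintile (27.1 to 35.9% against 13.3 to 24.1%) and the next higher one (34.3 to 44.1% against 21.1 to 31.1%), and they overlapped in the other 3. The intergenic share of the members went from 30.6% to 6.98% over the same quintiles. Gene end members had a median score of 46 and a median width of 896 bp, gene body members 36 and 629 bp, gene start members 33 and 514 bp, and intergenic members 26 and 364 bp.

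**Figure D3:**
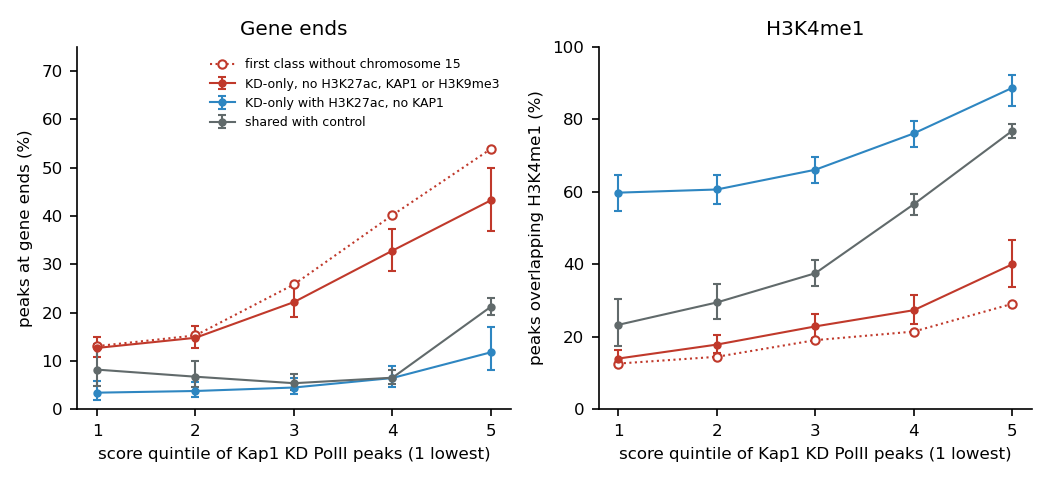
Share of peaks at gene ends (left, %) and share overlapping H3K4me1 (right, %) by quintile of the Kap1 KD PolII score, with 95% Wilson intervals over peaks. Members are red, peaks with H3K27ac blue, shared peaks grey, and open red circles are members without chromosome 15. Members at gene ends go from 12.7% to 43.3% and members with H3K4me1 from 13.96% to 86 of 215 (the right-hand point at 40%).

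The 3 highest-scoring gene end members were at Csf1, Eif3b and Tubb6. Csf1 encodes a growth factor of macrophages, and its member (chr3:107542141-107547785, score 347) was 5645 bp wide, was centred 0.997 kb before the annotated 3′ end and was covered to 37.2% by Csf1 exons. Eif3b encodes a subunit of a translation initiation factor, and its member (chr5:140918868-140925980, score 322) was 7113 bp wide and centred 3.11 kb past the gene. The control PolII peak nearest to it was 4.26 kb away and the H3K27ac region nearest to it 21.5 kb away. Tubb6 encodes a beta tubulin and converges with Afg3l2, a mitochondrial protease gene. The member there (score 284, width 5028 bp) was centred 1.10 kb past Tubb6 and 0.923 kb past Afg3l2, so it cannot be given to either gene. The poly(A) signal of Eif3b, the hexamer AATAAA, ended 15 bases before the annotated 3′ end and is shown in capitals in 30 bases of the + strand of mm9.
Eif3b, chr5:140919282-140919311, + strand: gttggatgtggaAATAAAagcaaccctgtg
This hexamer lay within the last 40 bases of 60.3% of the 833 genes with a gene end member (56.9 to 63.5%) and of 52.6% of the 21534 protein-coding genes without one.

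In gene bodies, the highest-scoring members were wide peaks in the 3′ part of the gene. The member of highest score (531) covered 12070 bp of Mll2 (chr15:98669922-98681991), which encodes an H3K4 methyltransferase, and 63.1% of it was exon. Its centre lay 25.7 kb into the 39.5 kb gene, with no H3K4me1 on it and the nearest control PolII peak 4.68 kb away. Zfp622, a zinc finger protein gene, held a member of score 334 (chr15:25922215-25929732) centred 2.26 kb before the 3′ end, of which 36.6% was covered by H3K4me1. Pdzd2, a PDZ domain protein gene, held a member of score 301 (chr15:12287807-12294460) centred 4.33 kb before the 3′ end, with 62.9% exon and no H3K4me1. All 3 genes are on chromosome 15.

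Most gene start members lay close to an annotated start. Of the 773, 539 (69.7%) were centred within 250 bp of a TSS and 510 (66.0%) on its downstream side, with a median offset of 61 bp. H3K27ac lay within 1 kb of 56.1% of them and H3K4me1 within 1 kb of 70.5%. Among those of highest score, the member at chr2:127161746-127166396 (score 247) was centred 304 bp upstream of Astl, an egg protease gene, and also 0.041 kb before the 3′ end of Dusp2, a phosphatase gene of MAP kinase signalling.

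Intergenic members lay a median of 29.2 kb from a protein-coding gene, and 229 (39.4%) were over 50 kb away. Of them, 50.8% had an H3K9me3 region within 5 kb, against 5.69% of gene start members, 12.95% of gene end members and 15.6% of gene body members. This share was not computed for other intergenic Kap1 KD PolII peaks. The 3 intergenic members of highest score all overlapped H3K4me1, over different shares of their bases. The member of score 335 (chr15:63911211-63918230) was centred 5.38 kb past the 3′ end of Asap1, just beyond the gene end window. H3K4me1 covered 3.87% of it, and it overlapped a PolIII peak of Kap1 KD cells. The member of score 225 (chr17:34263902-34268282) was centred 6.04 kb upstream of H2-DMa, a gene of antigen presentation, with 32.9% of its bases in H3K4me1 and an H3K27ac region 2.66 kb away. The member of score 180 (chr11:4229034-4232928) was centred 14.8 kb past Hormad2, a meiotic chromosome gene, and 0.523 kb from H3K27ac, with 8.96% of its bases in H3K4me1. PolIII peaks of control cells overlapped 31 members (0.981%) and those of Kap1 KD cells 5 (0.158%), against 1.62% and 0.568% of all Kap1 KD PolII peaks.

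H3K4me1 was not part of the rule, though it occurs with H3K27ac, which was. It overlapped 645 members (20.4%, 19.05 to 21.9%), against 46.1% of all Kap1 KD PolII peaks, 68.0% of the Kap1-KD-only peaks with H3K27ac, 57.9% of those at KAP1, 21.1% of those in H3K9me3 and 59.6% of the shared peaks. Gene body members had the highest share (28.0%, 25.5 to 30.7%), followed by intergenic members (22.5%, 19.3 to 26.1%), gene end members (14.7%, 12.1 to 17.7%) and gene start members (13.2%, 11.0 to 15.8%). The interval of the gene body share overlapped that of the intergenic share, as the gene end interval did that of gene starts. Introns had 29.4% and exons 17.8%. At the same positions, peaks with H3K27ac had 85.2% in gene bodies, 78.3% in intergenic sequence, 86.0% at gene ends and 46.2% at gene starts. Those in H3K9me3 had 18.4% in gene bodies, 24.3% in intergenic sequence, 17.5% at gene ends and 11.5% at gene starts.

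**Figure D4:**
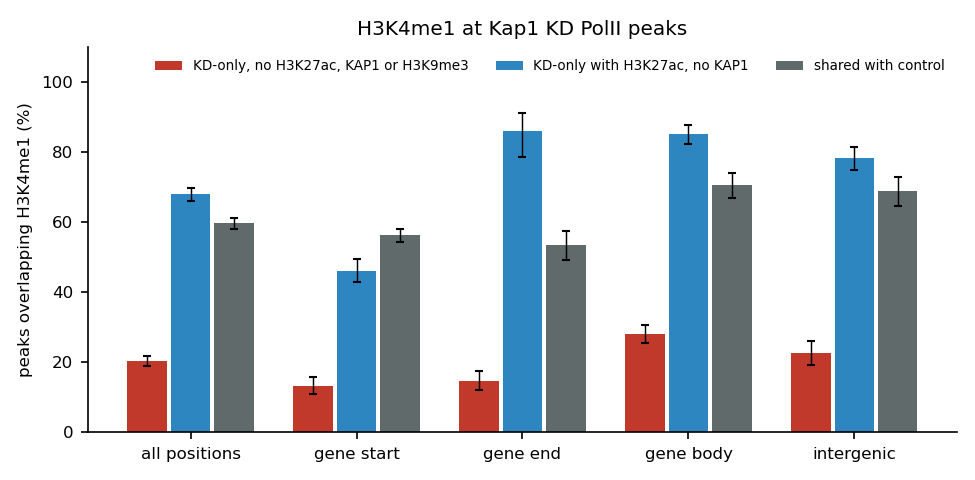
Share of Kap1 KD PolII peaks overlapping an H3K4me1 region (%), at all positions and by position, for members (red), peaks with H3K27ac (blue) and shared peaks (grey). Error bars are 95% Wilson intervals over peaks. The members' bars run from 13.2% at gene starts to 28.0% in gene bodies and are the lowest of the classes shown at each position. Kap1-KD-only peaks in H3K9me3 are not shown.

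Members with H3K4me1 had a median score of 43 and a median width of 792 bp, against 33 and 521 bp for those without it, and the mark covered a median of 51.6% of the peak. By score quintile the share was 13.96%, 17.8%, 22.8% and 27.3%, and 86 of the 215 members in the highest quintile had the mark. From the lowest to the highest quintile all Kap1 KD PolII peaks went from 24.6% to 74.9%. The shared peaks went from 23.3% to 76.9% and the peaks with H3K27ac from 59.8% to 88.7%, so the rise was not particular to the members. A wider peak meets a region more readily, and the part of width in the rise with score was not tested. With the peak centre in place of any shared base, the share over all members was 11.0%. Counting H3K4me1 within 1 kb, the members had 44.4%, against 70.4% of all Kap1 KD PolII peaks. It was 85.8% for the shared peaks, 93.5% for the peaks with H3K27ac and 30.3% for those in H3K9me3. Of the members with H3K4me1, 312 (48.4%) lay in gene bodies and 131 (20.3%) in intergenic sequence.

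The genes around the members were often marked by PolII at their start in control cells. The rule barred control PolII at the member itself, and so at every member counted here, and did not use the start of the gene for gene body and gene end members. Of the 1432 protein-coding genes with a gene body or gene end member, 605 (42.2%, 39.7 to 44.8%) had a control PolII peak within 250 bp of the gene start, against 13.1% of all 22367. These genes were longer, with a median of 28.1 kb against 15.4 kb, and in each quartile of gene length their share was above that of all genes, at 36.5% against 9.17% in the shortest and 37.5% against 12.8% in the longest. Seen from the genes, 10.8% of the 2941 genes with a control PolII promoter peak held a gene body member and 12.2% a gene end member, against 1.57% and 1.66% of the 16981 genes with PolII at the promoter in neither condition. Gene start members differed, as 28.2% of the 2445 genes with a promoter peak under Kap1 KD only held one, against 3.88% of those with a control promoter peak. A gene start member lies where the promoter peak is scored, so the rule bears directly on that comparison. Of the gene end members, 57.0% lay in the window of a gene with a control promoter peak, and of the gene body members 55.7%.

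Across all protein-coding genes, 2364 (10.6%) held a member between 1 kb before the gene and 5 kb after it. Of these, 1940 held 1, 287 held 2 and 26 held 6 or more. Trio, which encodes a guanine nucleotide exchange factor of small GTPases, held the most, with 29 members from 5.91 to 276 kb into the 295 kb gene, all in the gene body, 12 of them with H3K4me1. Asap1, an Arf GTPase-activating protein gene, held 26, of which 15 had H3K4me1. These members lay 33.1 to 293 kb into the 294 kb gene and took up 15.3% of its length. Ext1, a heparan sulfate polymerase gene, held 18 and Pan3, a gene of the deadenylation complex, 14. Gm20388 held 12, but it is an annotated model of 4435 kb that spans many other genes, and it is uncertain as a single gene. Wnk1, a kinase of ion transport, held 10, and 6 genes were tied at 9, of which Yaf2, Pphln1 and Atad2 had the largest summed width of members and complete the 10 chosen by the rule. Yaf2 had 35.3% of its 52.7 kb in members, 8 of the 9 with H3K4me1. Of the 8 genes named here other than Gm20388, 7 had a control PolII peak at the gene start and Pphln1 did not.

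Of these 10 genes 7 are on chromosome 15, as are 8 of the 13 with at least 9 members. This chromosome held 627 members (19.8%). The same chromosome held 8.14% of the shared peaks, 11.2% of the Kap1-KD-only peaks with H3K27ac, 9.85% of the control PolII list and 12.7% of the H3K4me1 regions. It also held 18.1% of the 431 PolIII peaks of Kap1 KD cells, close to the share of the members, but 1.15% of the control PolIII list, which had 48.4% of its peaks on chromosome 1 and 26.7% on chromosome 2, so the overlaps with that list given above weigh these chromosomes most. Its members were in gene bodies more often (53.7% against 30.6% elsewhere), at gene starts less often (6.22% against 29.0%) and overlapped H3K4me1 more often (36.7%, 33.0 to 40.5%, against 16.4%, 14.999 to 17.9%). Gene bodies held 43.1% of the peaks with H3K27ac on chromosome 15 against 25.6% elsewhere, and 26.9% of the shared peaks against 13.8%. Gene starts held 15.8% against 41.5% of the peaks with H3K27ac and 43.3% against 59.7% of the shared peaks. In the peaks with H3K27ac, H3K4me1 was also more frequent on chromosome 15 (89.6% against 65.3%). The window from 60 to 65 Mb held 82 members beside 11 protein-coding gene starts, and the window from 75 to 80 Mb held 22 beside 151. The number of copies of the chromosome in these cells was not measured in the lists, and its part in these shares was not tested.

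**Figure D5:**
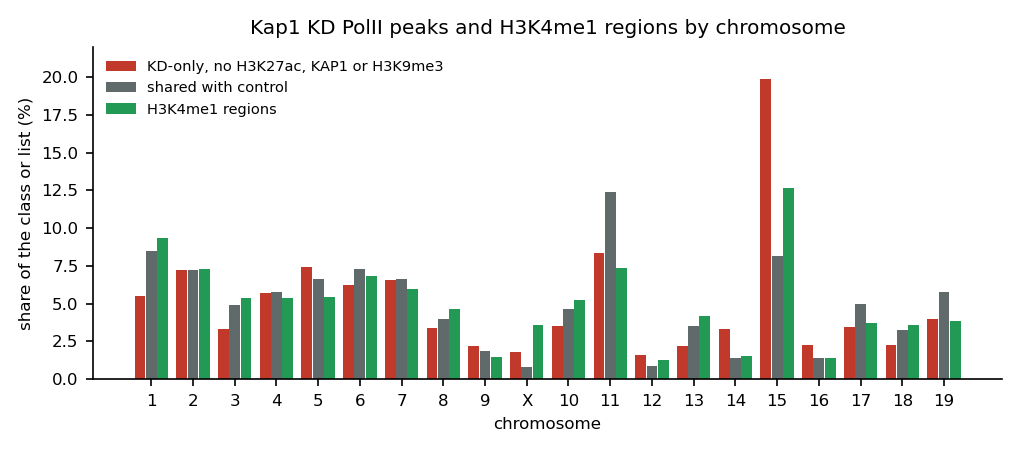
Share (%) of the members (red), the Kap1 KD PolII peaks shared with control (grey) and the H3K4me1 regions (green) on each chromosome. Chromosome 15 holds 19.8% of the members, 8.14% of the shared peaks and 12.7% of the H3K4me1 regions.

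Gene groups were compared with the 10.6% of all protein-coding genes that held a member, as counts with no test. That share was 23.0% for genes with a control PolII promoter peak, 38.3% with one under Kap1 KD only and 4.42% with neither. Control promoter peaks lay at 19 of 24 translation factor, 22 of 29 nuclear RNA binding and 14 of 22 chaperone genes. They lay at 5 of 19 KAP1 and heterochromatin, 8 of 24 actin, tubulin and actin binding and 6 of 18 glycolysis genes. Of the translation factor genes 9 of 24 held a member, led by Eif3h with 4, all in the gene body and with H3K4me1, and by Eif3b and Eif3e with 2 each. Of the KAP1 and heterochromatin genes 7 of 19 did. In this group Pphln1, a subunit of the HUSH silencing complex, held 9, Chd4, a chromatin remodeller of the NuRD complex, held 2, and the heterochromatin protein genes Cbx5 and Cbx3 held 1 gene end member each. The actin, tubulin and actin binding genes had 8 of 24, with 3 members each at Tubb6 and Myh9 and 2 gene end members at Tpm1. The Tubb6 count includes the gene end member that also lies in the window of Afg3l2. The chaperone genes had 7 of 22, with 4 gene body members at Hspa4 and 2 gene end members at Hsp90aa1. The nuclear RNA binding genes had 8 of 29, among them Hnrnpl, Pcbp2 and Hnrnpc with 2 each, and the glycolysis genes 5 of 18. Eif3h, Eif3e, Pphln1, Cbx5, Myh9 and Pcbp2 are on chromosome 15.

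Groups known for liver function had counts too small to be placed above or below the 10.6% of all protein-coding genes. The plasma protein and apolipoprotein genes had 3 of 30 (10%), near the share of all genes, with a gene end member at Rbp4, the retinol carrier of plasma, and gene start members at Vtn and Apoh. The liver transcription factor genes had 1 of 24, a gene end member at Nr1i3, and the cholesterol and fatty acid synthesis genes 4 of 24 (16.7%), with 2 members at Fasn, the fatty acid synthase gene, and 2 at Acly, which encodes an enzyme that supplies acetyl-CoA. The interferon response genes had 2 of 23 (Ddx58 and Bst2) and the immediate early genes 1 of 20, Fosl2, although 12 of those 20 had control PolII at the gene start. The ribosomal protein genes had 4 of 41 with 36 control promoter peaks. The replication-dependent histone genes had 0 of 22, with 21 control promoter peaks. None of the 16 listed long noncoding RNA genes is annotated as protein-coding, so that group could not be counted this way. Of all 1273 annotated lincRNA genes, 68 (5.34%) overlapped a member.

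In sequence, the 300 bp at the peak centre separated gene starts from the rest. Gene start members had a median G+C content of 66.3%, and 73.4% of them had a CpG ratio, observed over expected, above 0.6. All Kap1 KD PolII peaks at gene starts had 63.7% and 74.2%. Gene end, gene body and intergenic members had median G+C contents of 47.7%, 47.3% and 45.7%, and 2.05%, 4.04% and 4.65% of them passed that CpG ratio. The motifs were searched on both strands. The TATA box was searched as the letters TATAAA, the SP1 motif as the letters GGGCGG and the ETS motif as the letters CCGGAAG. The AP-1 motif was searched as TGANTCA, where N is any base. The motif of the liver factor FOXA was searched as TGTTTAC, that of the liver factor HNF4A as CAAAGTCCA and the poly(A) signal as AATAAA. The SP1 letters were in 57.3% of gene start members and the ETS letters in 16.2%, near the 55.3% and 15.97% of all Kap1 KD PolII peaks at gene starts. The AP-1 letters were in 9.43% of gene body members and 12.9% of intergenic members, against 27.5% and 27.7% of the peaks with H3K27ac at the same positions and 15.9% and 17.98% of all Kap1 KD PolII peaks there. In intergenic members AP-1 was found in 15.3% of the 131 with H3K4me1 and 12.2% of the 450 without. The FOXA letters were in 3.32% of all members and the HNF4A letters in 0.412%, against 4.03% and 0.397% of all Kap1 KD PolII peaks, and TATAAA was in 14.1% against 11.8%. The AATAAA letters were in 24.5% of gene end members, 26.4% of gene body members, 29.4% of intergenic members and 5.69% of gene start members, against 26.3%, 26.1%, 27.5% and 8.85% of all Kap1 KD PolII peaks at these positions. A match describes letters in the window and not a bound site.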

How the data were processed

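ChIP-seq peak lists of 8 libraries from Hepa 1-6 cells were used, 1 per antibody and condition, and the 5 input samples were not analysed here. The authors mapped reads with Bowtie to mm9 and used MACS, with total input as background, for PolII and KAP1, and ChIP-Part for the histone marks. In the deposited lists the values used are positions and, for PolII, the authors' whole-number score, whose meaning was not stated. Score quintiles were those of the whole Kap1 KD PolII list. Read depth is unknown. Positions are on NCBIM37 (mm9) with GENCODE M1 genes, counting from 1, and regions overlapped when they shared at least 1 bp. Positions were assigned by peak centre, in the order gene start, gene end, gene body, noncoding gene, intergenic. Shares carry 95% Wilson intervals and no test was run. Named members were the 3 of highest score at each position and the 3 strongest intergenic ones with H3K4me1, and named genes were the 10 with the most members and the listed genes with the most. Some named members and genes and 1 sequence are not reported here. The members and gene lists were chosen with earlier results of these data known. Overlap, distance and position code was tested on simulated regions. Python 3.11.15, pandas 2.3.3, numpy 2.4.6, scipy 1.17.1 and matplotlib 3.10.9 were used.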

Additional observations from a re-analysis of the deposited data

How the results depend on the processing

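Of 62 recomputed values, 23 stayed within the main interval, or within 1.5 times for the number of members, and 39 moved. The 23 include the gene start shares under changed gene end windows, which could not move because gene starts are assigned first. No paired analysis was possible because each group has 1 library. Without chromosome 15 the shares were 29.0% (gene start), 21.9% (gene end), 30.6% (gene body), 16.2% (intergenic) and 16.4% (H3K4me1). With members between consecutive control numbers only, gene ends were 22.8%, gene bodies 37.4%, intergenic 12.6% and genes with a control promoter peak 45.7%. Above the median score there were 926 members, with 17.7% at gene starts, 32.1% at gene ends, 39.96% in gene bodies, 9.18% intergenic, 30.7% with H3K4me1 and 50.6% of genes with a control promoter peak. When a list had to cover at least 50% of a peak to exclude it, there were 4953 members, with 34.5%, 17.6%, 29.6%, 16.5% and 29.8% for the 4 positions and H3K4me1. With no disqualifying region within 1 kb, gene starts were 14.7%, gene ends 24.5%, gene bodies 41.5% and H3K4me1 18.05%. Gene end windows reaching 1 kb or 10 kb past the gene gave 8.55% and 26.4% at gene ends, 38.3% and 31.5% in gene bodies, and 26.1% and 15.8% intergenic. All Kap1 KD PolII peaks had 5.22% and 15.8% at gene ends in these windows. Gene starts of 250 bp gave 17.1%, with 22.6% at gene ends and 39.5% in gene bodies, and all annotated genes gave 27.3% at gene starts. H3K4me1 at the peak centre was 11.0% and within 1 kb 44.4%, against 70.4% of all Kap1 KD PolII peaks within 1 kb. The members had 26.5% at gene ends once gene starts left the denominator, a setting chosen after seeing the data, below the 31.7% of the shared peaks in all and above them within each of the 5 score quintiles. The shared peaks were not filtered on H3K27ac, KAP1 or H3K9me3 as the members were. The gene end share of the members stayed above that of all Kap1 KD PolII peaks in the same window in each of the 5 window settings.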
